A study of Mus musculus with 4 samples.

Results

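The GM-CSF and Pparg axis is the signalling route that makes and keeps alveolar macrophages, phagocytes that live in the airspaces and clear surfactant. It was taken here as 10 genes: Csf2ra, Csf2rb and Csf2rb2 for the receptor chains, Jak2, Stat5a and Stat5b for the signal, Spi1 and Pparg for the transcription factors, and the related repressors Bhlhe40 and Bhlhe41. All 10 were found among the 19751 genes with a symbol on the array, through 14 probes that carry their RefSeq accessions. Every one of these probes was well above background on all 4 arrays.

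In the mouse, GM-CSF from the lung epithelium binds the alpha chain Csf2ra, which pairs with the beta chain Csf2rb. The kinase Jak2, carried by the beta chain, then activates Stat5a and Stat5b. In fetal monocytes that reach the lung this signal switches on Pparg, a lipid-sensing nuclear receptor, and with the lineage factor Spi1 (PU.1) Pparg sets up the lipid-handling programme of the alveolar macrophage. Bhlhe40 and Bhlhe41, which bind E-boxes and recruit corepressors, are known in mouse alveolar macrophages for sustaining self-renewal and for keeping genes of other macrophages silent.

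The study set alveolar macrophages of Bach2KO mice against those of WT mice. Bach2 is a leucine zipper repressor of the CNC family, and the labels also write the knockout as Bach2-/-. Cells of 4 (treatment protocol) or 3 (series design text) Bach2KO mice and of 8 WT mice were pooled by genotype and sorted by flow cytometry. The sources used here give neither the gate nor the strain, the age or the cells in which Bach2 was deleted. A single RNA sample per genotype was split in 2 before Cy3 labelling, so 2 arrays per genotype are repeats of 1 sample, no test across samples exists, and no p-value is given. Every SD after ± is over 2 arrays and covers labelling and hybridisation only.

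Levels are log2 signals relative to the array's own 75th percentile, so that 0 is that percentile and a difference of 1 is 2-fold. All differences are Bach2KO minus WT. A gene counts as called where each of the 2 Bach2KO arrays differed from each of the 2 WT arrays by 2-fold or more in the same direction (4 array pairs). Where a gene was not well above background on any array of a genotype, the lower bound of its fold also had to reach 2-fold. Of 15123 measured genes, 1266 (8.37%) were called higher and 892 (5.9%) lower in Bach2KO. Levels of different probes are not compared with each other. In these bulk samples a lower level in each cell and a smaller share of cells holding the transcript cannot be told apart.

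Each array had between 27125 and 27918 of its 39429 probes well above background, and the 75th percentile of the linear signal was 1036 and 979 on the Bach2KO arrays and 1267 and 1513 on the WT arrays. All arrays were on 1 slide, so a position on the slide and a genotype cannot be told apart. The Bach2 probe was near background, at -5.16 and -8.13 in Bach2KO and -6.32 and -6.28 in WT, and it was well above background on 1 array of each genotype, so it does not check the labels. All 23 measured alveolar macrophage markers were well above background in both genotypes. So were all 5 measured endothelium and all 6 measured dendritic cell markers, so this does not check the labelled cell type. Of the 23 alveolar macrophage markers, 2 were called higher and 7 lower in Bach2KO, beside 8.37% and 5.9% of all measured genes. Their summed level, the log2 of their added linear signals, was 10.74 and 10.72 in Bach2KO and 10.95 and 10.80 in WT. Siglecf, which encodes a surface lectin of these cells, stood at 1.66 ± 0.079 in Bach2KO and 5.31 ± 0.10 in WT, a 12.6-fold lower level. The integrin gene Itgax was at 7.09 in Bach2KO and 6.50 in WT and was not called. Pparg is itself 1 of these markers.

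Markers of other cells also differed, and the counts below stand beside 8.37% of all measured genes called higher and 5.9% lower. Of 18 measured monocyte and interstitial macrophage markers 9 were called higher and 2 lower, with summed levels of 7.62 and 7.49 in Bach2KO and 7.25 and 7.24 in WT. Of 10 neutrophil markers 3 were called higher and 1 lower, with sums of 5.80 and 5.81 in Bach2KO and 5.52 and 5.48 in WT. Of 11 T cell markers 5 were called higher, with sums of 3.27 and 3.26 in Bach2KO and 2.96 and 2.80 in WT. Of 10 alveolar epithelium markers 3 were called higher and 1 lower, with sums of 4.55 and 4.60 in Bach2KO and 4.40 and 4.39 in WT, and of 5 endothelium markers 2 were called higher, with sums of 3.0178 and 3.1004 in Bach2KO and 2.6124 and 2.7066 in WT. Such sums follow the brightest probes of a list and say little on its dimmer markers. Ms4a4c, Cd4 and Kdr, the brightest of the monocyte and interstitial macrophage, T cell and endothelium lists, were not called. Part of the counts of called genes comes from genes too dim in WT to be measured there. Among markers well above background on all 4 arrays, 5 of 13 of the monocyte and interstitial macrophage list were called higher and 2 lower. In the neutrophil list 1 of 8 was higher and 1 lower, and in the T cell list 2 of 8 were higher. Of all 14197 genes measured under that filter, 975 were called higher and 780 lower. All 11 T cell markers had a difference above 0, and 0 lay below it. Thy1 and Lck, at 2.67 and 1.57, were called higher. Cd3e and Cd4, with the smallest differences of that list at 0.17 and 0.30, were not called. This sign was not particular to T cell markers. All 7 B cell, 4 NK cell, 7 fibroblast, 5 endothelium and 2 erythroid markers measured also lay above 0. The other marker lists held genes on both sides of 0. The part of such cells in the results on the axis was not tested.

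The largest difference in the axis was that of Bhlhe41, which was 2.39-fold higher in Bach2KO, whereas the receptor chains and Pparg differed by 1.07-fold to 1.15-fold. Of the 10 genes, 1 was called higher and 0 lower, beside 8.37% and 5.9% of all measured genes. The other 9 passed neither rule. The median difference over the 10 was 0.13, against 0.06 over all measured genes, and the median absolute difference was 0.30, against 0.40. For all 10 the arrays of the genotypes did not overlap, but this held for 85.1% of all measured genes. For 9 of the 10 the difference was larger than the gap between the arrays of either genotype, as it was for 79% of all measured genes. All measured genes were also cut into 10 groups of equal size by mean signal. By construction, all measured genes split evenly inside and outside the middle range between the quartiles of the difference in their own group. Of the 10 genes of the axis, 5 fell inside that range and 5 outside it, the same even split. Those inside were Csf2ra, Csf2rb, Csf2rb2, Pparg and Jak2, and those outside were Spi1, Stat5a and Stat5b on the low side and Bhlhe40 and Bhlhe41 on the high side. For Bhlhe41 that range ran from -0.45 to 0.29, and for Pparg and the receptor chains from -0.18 to 0.43.

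**Figure D1:**
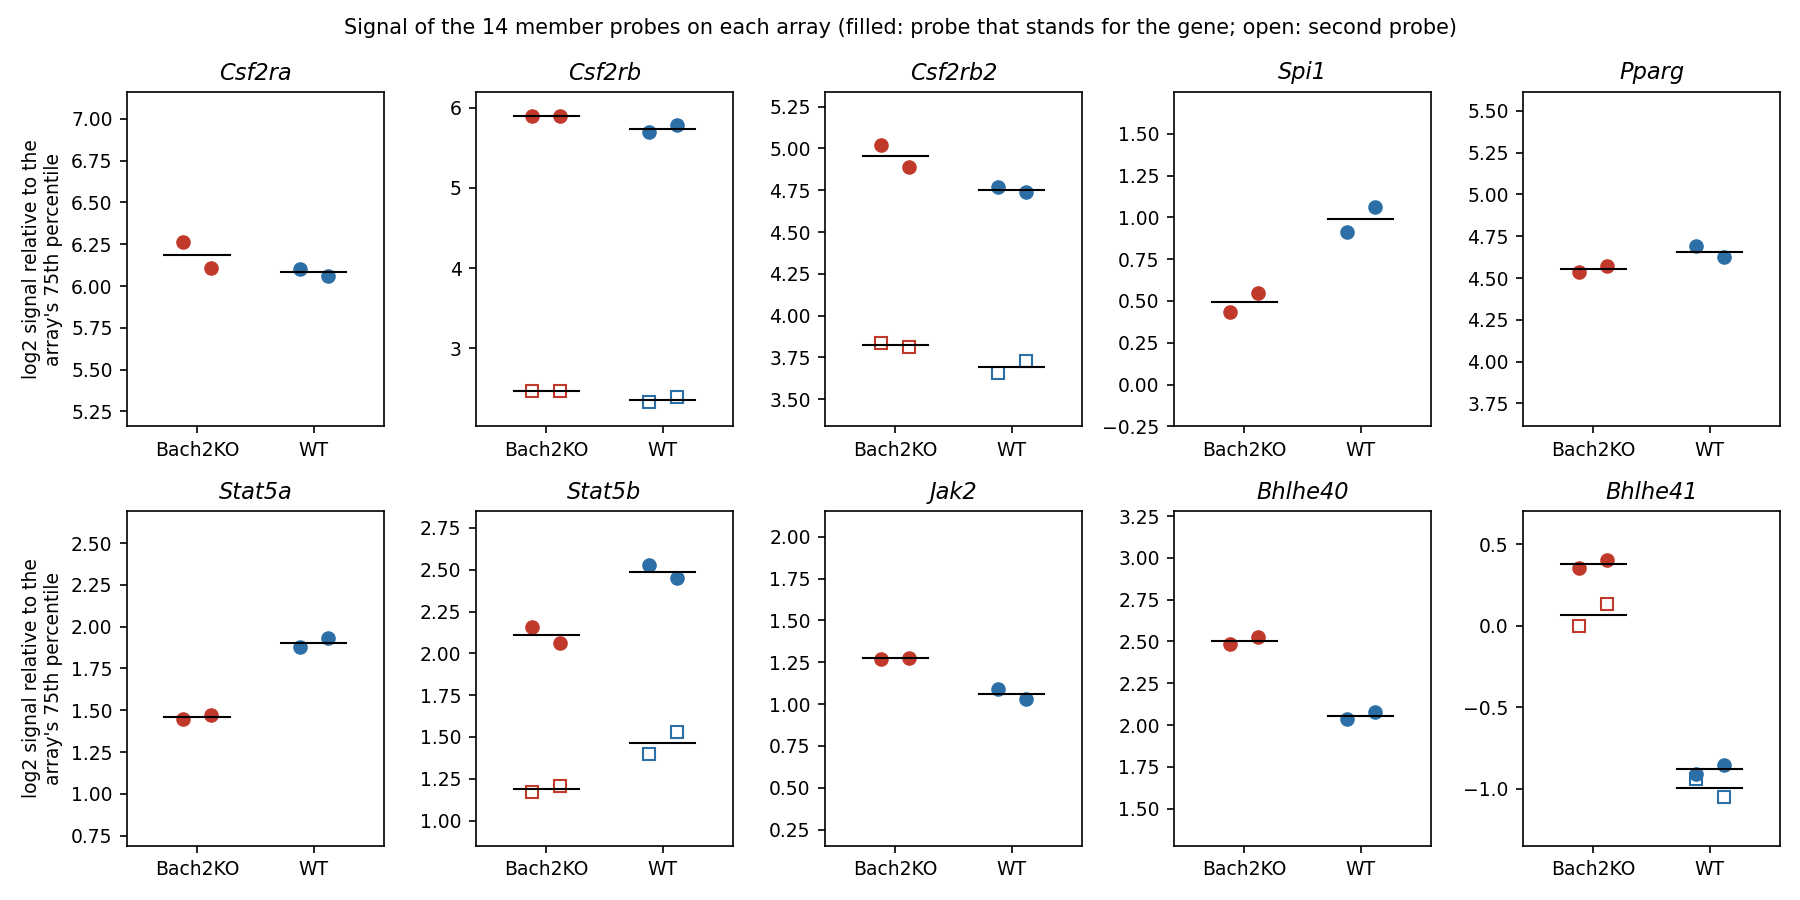
Log2 signal relative to the array's 75th percentile (vertical axes) of each of the 14 probes of the 10 genes on the 2 Bach2KO arrays (red) and the 2 WT arrays (blue), 1 panel per gene. Points are arrays, lines are genotype means, filled circles the probe that stands for the gene and open squares a second probe, and the height of the axis differs between panels; Bhlhe41 is the panel in which the genotypes stand farthest apart, on both of its probes.

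The receptor chains differed little between the genotypes. Csf2ra, the chain that recognises GM-CSF, had 6.26 and 6.11 in Bach2KO and 6.10 and 6.06 in WT. Its difference of 0.10 was smaller than the gap of 0.16 between the Bach2KO arrays, and the 4 array pairs ran from 0.0028 to 0.21. It was the 1 gene of the axis whose difference was within the gap between arrays of a genotype.

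Csf2rb, the signalling chain shared by the receptors for GM-CSF, IL-3 and IL-5, had 5.90 and 5.89 in Bach2KO and 5.69 and 5.78 in WT. The difference was 0.15, with array pairs from 0.11 to 0.20, and a second probe gave 0.12. Csf2rb2, the mouse beta chain that serves IL-3 alone, had 5.02 and 4.89 in Bach2KO and 4.77 and 4.74 in WT. Its difference was 0.20, and that of its second probe 0.13. All 3 chains were slightly higher in Bach2KO on every array pair, up to 1.21-fold in Csf2rb2, but lay below WT with spike-in scaling and, for Csf2ra and Csf2rb, with quantile normalization. Csf2rb and Csf2rb2 are close paralogs whose transcripts may share a probe, so their separate values are uncertain. Of all measured genes, 86.0% differed by more than Csf2ra, 79.0% by more than Csf2rb and 73.6% by more than Csf2rb2.

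Of 9 other genes for colony-stimulating factors, IL-3, IL-5 and their receptor chains, 6 were measured. Of these 1 was called higher and 0 lower, beside 8.37% and 5.9% of all measured genes. Csf2, the gene of GM-CSF itself, and Il5 and Csf3 were too near background in both genotypes to be measured. The gene called was Csf1, which does not signal through the GM-CSF receptor and is the ligand of the macrophage growth factor receptor Csf1r, at 2.42 ± 0.017 in Bach2KO and -4.89 ± 0.016 in WT, 159-fold higher in Bach2KO. The other 2 probes of Csf1 were not well above background in WT. Csf1r itself, named after its values were seen, differed by 0.07. Il3ra, the alpha chain of the IL-3 receptor and likewise named afterwards, differed by 0.90 and was not called. Some markers of monocytes, neutrophils and T cells were higher in the same sample, and their part in the Csf1 difference was not tested.

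Jak2, the kinase that phosphorylates the beta chain, had 1.27 and 1.28 in Bach2KO and 1.09 and 1.03 in WT. The Bach2KO arrays stood above both WT arrays by 0.18 to 0.25, and the difference of means was 0.22, or 1.16-fold, with the opposite sign under spike-in scaling. The Stat5 genes, which carry the signal to the nucleus, lay the other way. Stat5a had 1.45 and 1.47 in Bach2KO and 1.88 and 1.93 in WT, a difference of -0.45 (1.36-fold lower) with pairs from -0.48 to -0.41. Stat5b had 2.16 and 2.06 in Bach2KO and 2.53 and 2.45 in WT, a difference of -0.38 with pairs from -0.47 to -0.29, and its second probe gave -0.28. Neither gene was called. These 2 genes are near-identical in long stretches, so a probe may read both. Of all measured genes 45.6% differed by more than Stat5a, and 52.2% by more than Stat5b.

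Among the other Jak and Stat genes, 7 were measured and 0 were called in either direction, beside 14.3% of all measured genes. Their median difference was -0.07. Jak1, a kinase of interferon and IL-6 family receptors, differed by 0.57, and Stat3, which acts downstream of IL-6 and IL-10, by 0.10.

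The adaptors, kinases and brakes of the receptor gave 4 genes called higher and 2 lower of 28 measured, with a median of -0.28. The shares over all measured genes were 8.37% and 5.9%. Both called brakes, Socs3 and Socs1, which block Jak kinases, were higher in Bach2KO. Socs3 was at 2.71 ± 0.025 in Bach2KO and 0.08 ± 0.015 in WT (6.16-fold higher), and Socs1 at -0.89 ± 0.040 in Bach2KO and -2.74 ± 0.090 in WT (3.60-fold higher). Pik3ca, a catalytic subunit of phosphoinositide 3-kinase, was 2.22-fold higher, a call lost when arrays were centred on their median and under normexp background correction. Fes, a tyrosine kinase of myeloid cells, was 2.11-fold lower.

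Genes that Stat5 is known to activate or repress went both ways, with 5 called higher and 2 lower of 21 measured. Their median was 0.22, and of all measured genes 8.37% were called higher and 5.9% lower. Cish, the feedback inhibitor most closely tied to Stat5 and named here after its values were seen, differed by 0.22 and was not called. Ccnd1, which encodes cyclin D1, was 7.77-fold higher in Bach2KO, and Ccnd2, which encodes cyclin D2, was 2.74-fold lower. Gfi1, a transcription repressor of granulocytes and lymphocytes, was at -1.20 in Bach2KO and not well above background in WT, so that it was at least 35.5-fold higher. Id1, a dominant-negative helix-loop-helix factor, was 8.13-fold lower. Socs3 and Socs1 belong to this list as well. Some markers of neutrophils and T cells were higher in the same sample, and their part in the Gfi1 value was not tested.

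Spi1, the ETS factor on which all macrophages depend, had 0.44 and 0.55 in Bach2KO and 0.91 and 1.06 in WT. Both Bach2KO arrays were below both WT arrays, by 0.36 to 0.63, and the difference was -0.50 (1.41-fold lower). It was not called, and 41.0% of all measured genes differed by more.

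Of 32 measured genes that depend on Spi1 in myeloid cells, 1 was called higher and 3 lower, with a median difference of 0.07. Among all measured genes, 8.37% were called higher and 5.9% lower. Msr1, a scavenger receptor, was 8.86-fold higher in Bach2KO, at 0.74 ± 0.049 against -2.41 ± 0.079 in WT. Coro1a, which encodes a leukocyte actin-binding protein, was 22.5-fold lower, at 1.35 ± 0.030 in Bach2KO and 5.84 ± 0.048 in WT. Fcgr1, the high-affinity receptor for IgG, was 13.1-fold lower. The other 28 genes of this list, among them the integrin gene Itgax, were not called.

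Of 21 measured partners and relatives of Spi1, 5 were called higher and 1 lower, beside 8.37% and 5.9% of all measured genes. Cebpe, a granulocyte factor, was higher in Bach2KO, at -1.87 against -5.54 in WT, where 1 of 2 arrays was well above background, so that the size of its difference is uncertain. Jun, a subunit of AP-1, was 2.78-fold higher, and Gfi1 is again among them. Cebpd, a factor induced in inflammation, was 3.27-fold lower.

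Pparg was spotted 10 times on each array, the 1 probe of the axis with more than 1 copy. Its mean over the copies was 4.54 and 4.57 in Bach2KO and 4.69 and 4.63 in WT, and the SD over copies was between 0.083 and 0.097 on each array. The difference was -0.10, with array pairs from -0.15 to -0.05. Compared copy by copy at the same place on the array, all 10 were lower in Bach2KO, with differences from -0.18 to -0.04. The copies share the RNA and the labelling of their array and are not repeats of a genotype. The difference corresponds to 1.07-fold, and 86.3% of all measured genes differed by more.

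**Figure D2:**
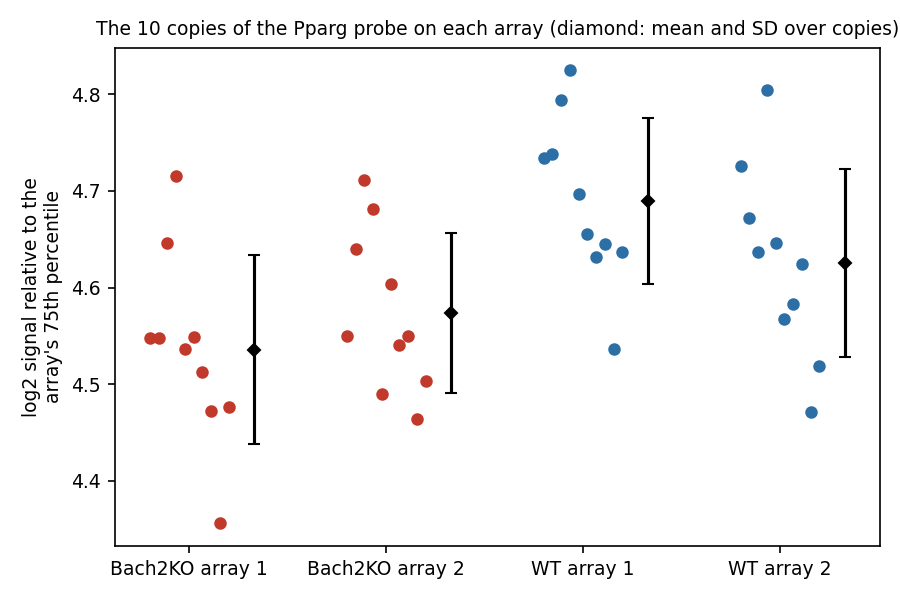
Log2 signal relative to the array's 75th percentile (vertical axis) of the 10 copies of the Pparg probe on each of the 2 Bach2KO arrays (red) and the 2 WT arrays (blue). Points are copies and diamonds with bars are the mean and SD over copies; the means lie at 4.54 and 4.57 in Bach2KO and at 4.69 and 4.63 in WT, and the copies of all 4 arrays overlap.

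Although the Pparg transcript differed so little, genes known as Pparg targets, mostly from fat cells and macrophages, spread widely. Of 36 measured, 5 were called higher and 9 lower, beside 8.37% and 5.9% of all measured genes, and 22 were not called. The median difference of the list was -0.30. The low end was held by Fabp1, a fatty acid-binding protein, at -1.51 and -1.62 in Bach2KO and 5.77 and 5.51 in WT, 148-fold lower. Cidec, a lipid droplet protein, was at -0.42 and -0.57 in Bach2KO and 5.61 and 5.60 in WT, 68.3-fold lower, while its second probe gave 36.2-fold. Abca1, a cholesterol exporter, was at -0.85 ± 0.061 in Bach2KO and 1.65 ± 0.071 in WT, 5.63-fold lower. The genotypes stood apart by far more than the arrays of either for these 3 genes.

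At the other end Cd36, a receptor for fatty acids and oxidised lipoproteins, was at 4.03 and 4.06 in Bach2KO and 2.01 and 2.06 in WT, 4.03-fold higher. Fabp4 had 5.41 and 5.41 in Bach2KO and 3.86 and 3.79 in WT, 3.00-fold higher, and Fabp5 had 8.42 and 8.22 in Bach2KO and 6.74 and 6.79 in WT, 2.93-fold higher, a call lost under quantile normalization (difference 1.16). Both encode fatty acid-binding proteins, as does Fabp1, so members of 1 family lay at both ends of the list. Fabp1 and Fabp4 also stand among the alveolar macrophage markers, which changed both ways too, and the part of a change in the mixture of cells was not tested.

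Among all measured genes, 8.37% were called higher and 5.9% lower. The partners, coregulators and relatives of Pparg gave 0 genes called higher and 3 lower of 23 measured, with a median of -0.19. All 3 are coregulators that bind nuclear receptors: Nrip1, a corepressor, was 4.09-fold lower in Bach2KO, and the coactivators Ncoa1 and Ncoa2 were 2.43-fold and 2.13-fold lower. Rxra, the partner with which Pparg binds DNA and named after its values were seen, differed by -0.93 and was not called.

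**Figure D3:**
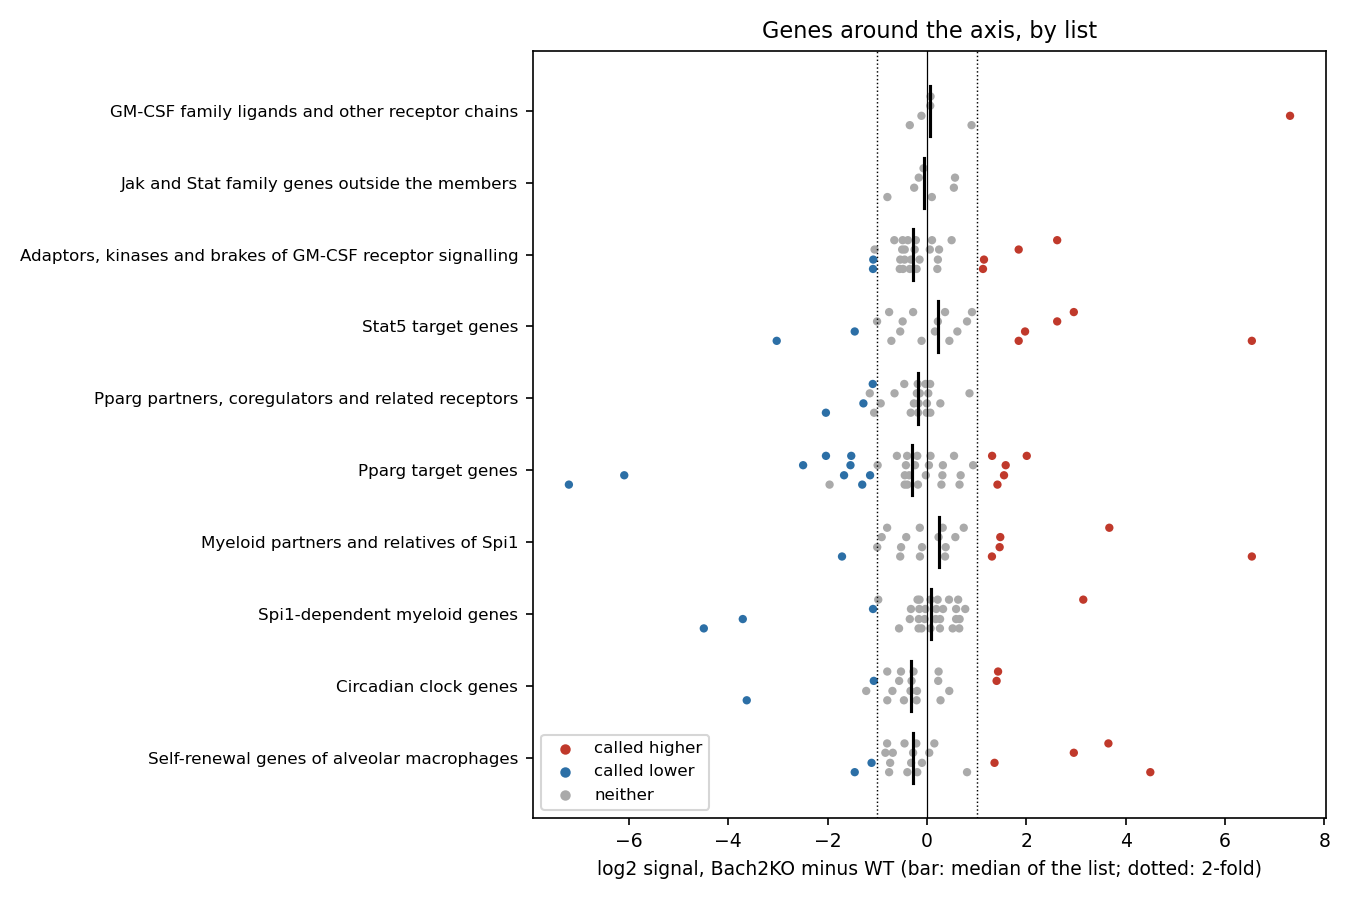
Differences in log2 signal, Bach2KO minus WT (horizontal axis), of the measured genes of 10 lists around the axis, 1 row per list. Points are genes, red where called higher, blue where called lower and grey otherwise, black bars are list medians and dotted lines mark 2-fold, with genes too dim in 1 genotype, such as Gfi1 and Maf, drawn at their measured differences and not at their bounds; Pparg targets, with 5 higher and 9 lower, hold calls on both sides, while the Jak and Stat genes hold 0.

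Bhlhe41 was the only gene of the axis called, and its close relative Bhlhe40 was not. Bhlhe41 had 0.35 and 0.40 in Bach2KO and -0.91 and -0.85 in WT. The difference was 1.26 (2.39-fold higher), with array pairs from 1.21 to 1.31, and the arrays of a genotype lay within 0.056 of each other. The second probe of Bhlhe41 had -0.00044 and 0.13 in Bach2KO and -0.94 and -1.05 in WT. It gave a difference of 1.06 and reached 2-fold in 3 of 4 array pairs, so by that probe alone the gene would not have been called. Of all measured genes, 12.8% differed by more than Bhlhe41.

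Bhlhe40 had 2.49 and 2.52 in Bach2KO and 2.03 and 2.08 in WT, a difference of 0.45 (1.36-fold higher) with pairs from 0.41 to 0.49. Both E-box repressors were thus higher in Bach2KO on every array pair, except that Bhlhe40 lies below WT when the arrays are scaled on spike-in RNA.

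Deviations over the 4 arrays were compared with those of Bhlhe41 by Euclidean distance, after each gene's mean was taken away. The 14192 genes well above background on all 4 arrays were used, Bhlhe41 among them, and predicted and clone-named genes were not ranked. Closest were Snx16, which encodes a sorting nexin of endosomes, at 0.027, Cxcl16, a chemokine, at 0.034, and Tmem79, a membrane protein gene, at 0.035. Their differences were 1.27, 1.29 and 1.26. With 4 arrays of 2 RNA samples this likeness is little more than a like difference between genotypes.

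Bhlhe40 and Bhlhe41 also repress the circadian clock, in which 2 genes were called higher and 2 lower of 20 measured, beside 8.37% and 5.9% of all measured genes, with a median of -0.32. Nr1d1, a clock repressor also known as Rev-erb alpha, was 12.4-fold lower in Bach2KO, at -5.21 ± 0.073 against -1.58 ± 0.082 in WT. Per1 was 2.10-fold lower, while Npas2 and Per3 were 2.70-fold and 2.64-fold higher. The sources used here do not give the hour at which each genotype was sampled. The Per1 call was lost under quantile normalization, with the deposited table of values and with the 75th percentile taken over probes. Those of Npas2 and Per3 were lost under normexp background correction.

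Of 21 measured genes tied to self-renewal of alveolar macrophages, 4 were called higher and 2 lower, with a median of -0.28. Maf, whose product restrains self-renewal of mouse macrophages, was not well above background in WT and was at least 7.26-fold higher in Bach2KO. Cdkn1b, a cell cycle inhibitor, was 2.17-fold lower, a call lost under quantile normalization (-1.07) and normexp background correction (-1.07), and the cyclin genes Ccnd1 and Ccnd2 are in this list as well. Maf also stands among the markers of monocytes and interstitial macrophages, whose part was not tested. Over all 10 lists and without the 10 genes of the axis, 200 genes were measured, of which 23 (11.5%) were called higher and 22 (11.0%) lower, beside 8.37% and 5.9% of all measured genes. These lists were chosen with earlier results of the same arrays known.

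The promoters shown are those whose letters hold a motif tied to the factors of the axis: the E-box CACGTG of Bhlhe40 and Bhlhe41, the Stat5 element TTCNNNGAA, the Spi1 core GAGGAAG, the direct repeat of Pparg and its partner (AGGTCA, any 1 base, AGGTCA), and TGACTCA, the core of the element that Bach2 binds. Both strands were searched over 250 bases before the transcription start in RefSeq's table for GRCm38.p6, which holds 11 promoters of 7 of the 10 genes. Of 32851 such windows, 6.02% hold CACGTG, 7.02% TTCNNNGAA, 10.6% GAGGAAG, 0.0335% the direct repeat and 4.46% TGACTCA. A match was found in 3 of the 11 windows. Each sequence is given 5′ to 3′ on the gene's strand, ending at the base before the start, with the matched letters in capitals.
Bhlhe41 (chr6:145865421-145865670, minus strand): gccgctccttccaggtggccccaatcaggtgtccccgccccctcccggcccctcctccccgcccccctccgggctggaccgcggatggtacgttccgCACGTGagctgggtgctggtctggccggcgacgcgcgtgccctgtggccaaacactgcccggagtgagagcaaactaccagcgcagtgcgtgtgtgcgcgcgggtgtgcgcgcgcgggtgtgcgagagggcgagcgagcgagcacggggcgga
Csf2ra (chr19:61228419-61228668, minus strand): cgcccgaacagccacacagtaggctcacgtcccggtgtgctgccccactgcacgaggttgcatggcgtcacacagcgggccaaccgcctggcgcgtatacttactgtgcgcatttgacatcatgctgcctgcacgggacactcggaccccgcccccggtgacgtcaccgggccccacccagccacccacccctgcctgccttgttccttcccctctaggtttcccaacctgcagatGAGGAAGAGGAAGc
Csf2rb2 (chr15:78305722-78305971, minus strand): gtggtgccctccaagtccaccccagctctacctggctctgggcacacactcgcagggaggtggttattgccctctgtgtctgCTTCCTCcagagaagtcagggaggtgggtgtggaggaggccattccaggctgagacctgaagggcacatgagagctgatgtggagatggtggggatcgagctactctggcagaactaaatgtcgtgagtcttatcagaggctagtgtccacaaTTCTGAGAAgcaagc
The window of Bhlhe41, the gene called, holds CACGTG, the letters that its own product binds, 153 bases before the start. That of Csf2ra holds GAGGAAG in an overlapping pair, at 14 and 8 bases. That of Csf2rb2 holds TTCNNNGAA at 15 bases and GAGGAAG, on the other strand, at 168 bases. The windows of Pparg, Stat5a, Stat5b and Jak2 hold none of these letters. The promoters of Spi1, Csf2rb and Bhlhe40 are not shown here.

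The scaling of the arrays moves all of these differences together. When the arrays were scaled on 9 spike-in probes, which read RNA added at labelling, the median of all genes was -0.70, against 0.06 with the 75th percentile. On that scale 3.95% of all measured genes were called higher and 21.8% lower (25.7% in all), and of the 10 genes 0 were higher and 2 lower. Those were Spi1, at a difference of -1.26, and Stat5a, at -1.21. Stat5b was at -1.14, with array pairs from -1.30 to -0.98, and was not called. Bhlhe41 remained above 0 there, at 0.50, and was not called, while Bhlhe40 was at -0.31, Jak2 at -0.55, Pparg at -0.87 and Csf2ra, Csf2rb and Csf2rb2 at -0.66, -0.61 and -0.56. So the slightly higher values of the receptor chains, Jak2 and Bhlhe40 have the opposite sign on that scale, and those of Csf2ra and Csf2rb also under quantile normalization (-0.09 and -0.03). The spike-in scale shifts every gene by the same -0.76, so it leaves the order of the 10 differences as it was, from Spi1 at the low end to Bhlhe41 at the high end.

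Among the genes around the axis, the spike-in scale gave 1 Pparg target called higher and 16 lower, 4 Stat5 targets higher and 7 lower, and 2 adaptors, kinases and brakes higher and 12 lower. Fabp4, Fabp5, Jun, Npas2, Per3 and Pik3ca were no longer called on it, and the other named genes of these lists kept their calls. The T cell marker Lck also lost its call there.

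**Figure D4:**
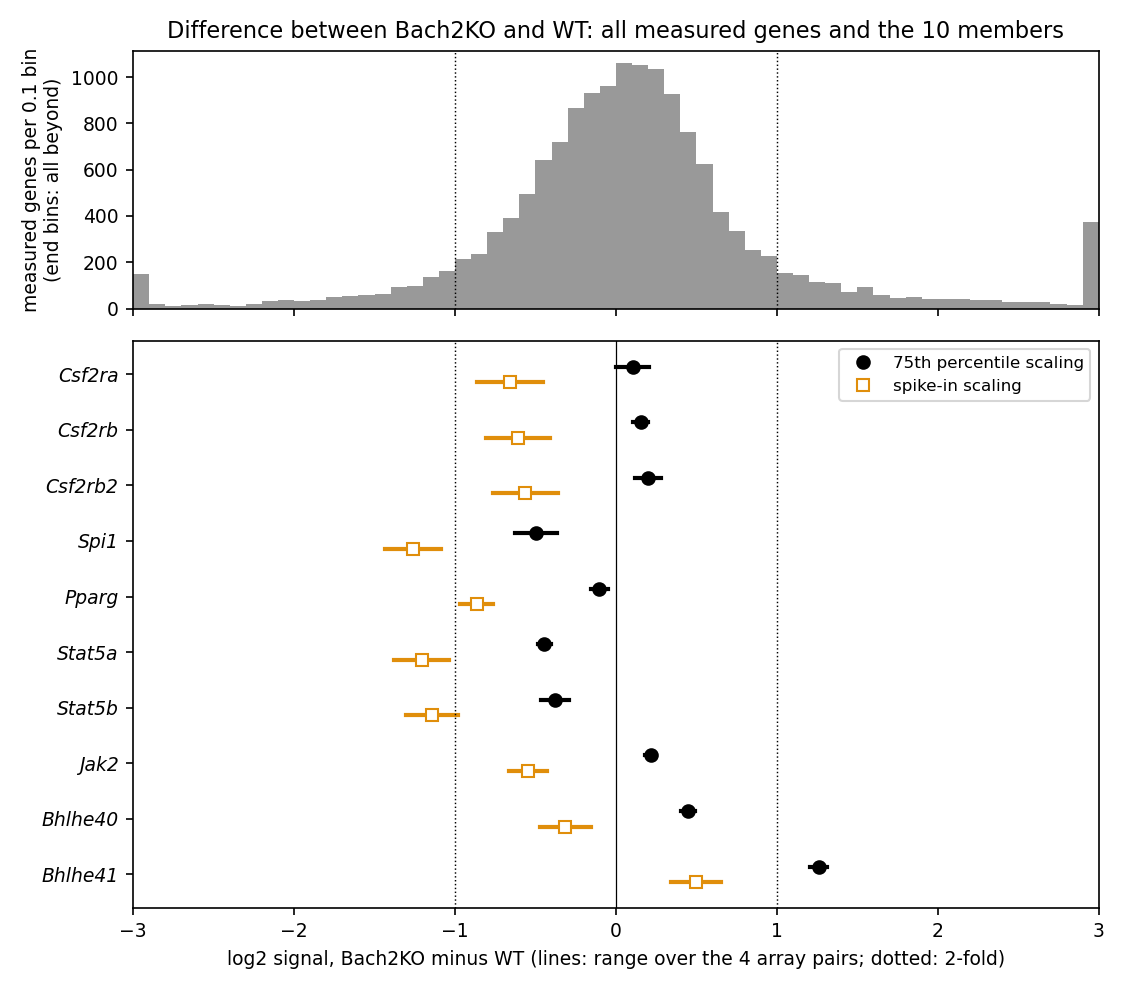
The upper panel counts all 15123 measured genes by their difference in log2 signal, Bach2KO minus WT, in bins of 0.1, with genes beyond the axis in the end bins. The lower panel shows the 10 genes of the axis with the 75th percentile scaling (black circles) and the spike-in scaling (open squares), lines giving the range over the 4 array pairs and dotted lines 2-fold; 1 gene, Bhlhe41, passes the 2-fold line on the right with the 75th percentile, and with the spike-ins all array pairs of Spi1 and Stat5a lie past that on the left.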

How the data were processed

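Gene expression was measured on 1-colour Agilent arrays of 2 Bach2KO and 2 WT labellings of 1 RNA sample per genotype. The genes of the axis and all gene lists were chosen with earlier results of these data known. The deposited scanner output gives intensity per spot on a linear scale. Per the file headers, the background had been subtracted and spatial trends removed on each array, without scaling of arrays to each other, and the software was Feature Extraction 10.7.3.1 (9.1 in the submitters' processing notes). The deposited table of values is on a log2 scale. Compared with the scanner output, it was the log2 signal minus a constant per array (SD of the difference 3.2e-07 to 3.5e-07 for probes with 1 spot), with higher values for brighter probes and column medians of -3.53 and -3.45 for Bach2KO and -3.58 and -3.67 for WT, so its scale, centring and direction are known, and it served as an alternative.

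Processed signals were taken to log2 per spot, control spots and outlier spots (109 to 136 of 43020 per array) were left out, spots of a probe were averaged, and the array's 75th percentile over non-control spots was subtracted. No spot was saturated. A gene was measured where a probe was well above background on both Bach2KO or both WT arrays, and its brightest probe stood for it. Where a genotype had no such level, the fold is a lower bound against, per array, the higher of the lowest signal among probes well above background and the probe's own. Symbols came through unversioned accessions from RefSeq's gene table of GRCm38.p6 (26055 of 39429 probes had 1 symbol, 0 several and 13374 none). The arrays were designed on mm9, and probes get no coordinates here. Each list names up to 3 called genes each way by size, or the 2 brightest where none was called, plus those said to be named after their values were seen and the marker genes, and some genes that this rule selects are not reported here. The code was tested on simulated data. Normexp correction (offset 50) and quantile normalization used limma 3.58.1 in R 4.3.3.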

Additional observations from a re-analysis of the deposited data

How the results depend on the processing

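With 1 RNA sample per genotype nothing here has a test, and the 18 alternatives show what the processing does, not how the genotypes vary between mice. Bhlhe41 was called higher in 14 of the 16 alternatives that keep the 2-fold rule. Those that leave out an array or compare fewer array pairs are among the 14 and could not have lost the call. The same holds for those that change the filter on dim probes or keep outlier spots, which left its difference at 1.26. The 2 that lost it were normexp background correction (difference 0.96, 0 genes of the axis called higher, 902 genes higher and 605 lower in all) and spike-in scaling (0 of the axis higher and 2 lower, 597 genes higher and 3295 lower, so 15.3% of calls were higher against 58.7%). At 3-fold 0 genes of the axis were called (695 higher and 410 lower in all), and at 1.5-fold 1 higher and 0 lower (2237 and 1933 in all). Median centring moved the median of all genes by -0.10. Leaving out each array in turn, with the lone array then standing for its genotype, gave 1 gene of the axis higher and 0 lower each time, 1328 to 1490 genes higher and 968 to 1035 lower in all. The replicate block, which compares same-numbered arrays alone, gave 1301 genes higher and 916 lower and changed no call of the axis. The numbers mark parts of 1 RNA sample and pair nothing across genotypes (correlation of same-numbered deviations -0.14 over 15123 genes). The crossed pairing, added after the data were seen as was the percentile over probes, gave 1340 higher and 944 lower. Both pairings and the runs without an array use only some of the array pairs that Bhlhe41 had already passed. They therefore say nothing on how firm its call is. Of 160 differences of the 10 genes recomputed under alternatives, 124 moved by less than the SD between arrays of a genotype and 36 by more. Many of the 124 could not have moved further. Leaving out an array shifts a difference by no more than that SD, and the 2 pairings leave it unchanged by construction. Changing the filter on dim probes or keeping outlier spots left all 10 differences as they were. The slide could not be fitted as a block, since all arrays share it.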
